A study of Mus musculus with 11 samples.

Results

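NF-κB is a family of transcription factors that carry signals from antigen, cytokine and innate immune receptors into the nucleus of B cells and other cells. Its subunits act as dimers. In resting cells most dimers are held in the cytoplasm by inhibitors of the IκB family, and IκB kinase (IKK) releases them by marking the inhibitor for destruction. The canonical route frees dimers of p50 with RelA or c-Rel, while the non-canonical route, through the kinase NIK, turns the p100 precursor into p52, which pairs with RelB. Several of the inhibitors are themselves target genes of NF-κB and so form a negative feedback.

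The 10 genes described here are the 5 subunits Nfkb1, Nfkb2, Rel, Rela and Relb and the 5 inhibitors Nfkbia, Nfkbib, Nfkbie, Nfkbiz and Tnfaip3. They were taken by symbol from a table of 23071 gene identifiers, and all 10 were measured in every library. RNA was sequenced in 11 libraries, 1 per mouse or pool of C57BL/6 mice. Each of 5 leukemia libraries held flash-frozen lymph node cells of 1 mouse with leukemia and the genotype Pax5+/- x Ebf1+/-, with no purification stated. The 3 Ebf1+/- libraries held progenitor B cells purified on columns from the bone marrow of pools of 3, 6 and 7 mice (replicates 1, 2 and 3). The 3 wild-type (WT) libraries held progenitor B cells prepared in the same way from pools of 3, 7 and 6 mice. Leukemic and Ebf1+/- mice have in common the loss of 1 copy of Ebf1. Pax5 and Ebf1 encode transcription factors that set up and keep B cell identity. Ages were not given. Between leukemia and the other groups, genotype, leukemic state, tissue, purification and pooling all differ and cannot be told apart.

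Values are FPKM as deposited by the authors, which scale reads to transcript length and library size, so that levels of different genes can be compared. Library totals lay between 8506680 and 15313920 reads. A single read, for a gene of 2000 bases, equalled between 0.0327 and 0.0588 FPKM depending on the library. Differences are of log2(FPKM + 1), a scale that makes changes of weakly expressed genes look smaller. They were tested with limma, a linear model fitted across every gene averaging 1 FPKM or more, and a gene was called at a Benjamini-Hochberg adjusted p under 0.05. The spread given is the SD over libraries. Pax5 averaged 119 ± 38.3 FPKM in leukemia (n = 5), 179 ± 83.5 in Ebf1+/- pools (n = 3) and 222 ± 77.9 in WT pools (n = 3). Ebf1 averaged 66.6 ± 10.8 FPKM in leukemia, 71.2 ± 24.1 in Ebf1+/- pools and 99.1 ± 14.3 in WT pools. All 13 B cell markers looked at were above 0 in every library, with sums of 3372 to 4530 FPKM in leukemia, 1861 to 5375 in Ebf1+/- pools and 2544 to 4386 in WT pools. These sums hide movements in both directions: against WT, 2 of the 13 were called higher in leukemia and 5 lower (Cd79b, Ebf1, Ms4a1, Pax5 and Rag2), with a median of -0.57. The pair called higher encodes the surrogate light chain of early B cells. Vpreb1 had 733 to 998 FPKM in leukemia, 224 to 734 in Ebf1+/- pools and 173 to 352 in WT pools, and Igll1 had 552 to 937, 221 to 733 and 166 to 352 FPKM in the same groups.

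The marrow pools also held RNA of other cells. The 14 granulocyte markers summed to 3.89 to 8.92 FPKM in leukemia, where 3 to 6 of them were at 0, against 2716 to 10646 FPKM in Ebf1+/- pools and 630 to 3398 FPKM in WT pools, where none was at 0. The 8 monocyte markers summed to 54.7 to 155 FPKM in leukemia, 507 to 2064 in Ebf1+/- pools and 410 to 682 in WT pools. Of 5 tested against WT, 3 were called lower and 0 higher. Lyz2 alone had 33.9 to 144 FPKM in leukemia and 308 to 517 in WT pools. Csf1r reached 14.9 FPKM in leukemia 1 and Ccr2 36.5 in leukemia 2, above all WT pools. The 8 platelet markers summed to 0.414 to 1.38 FPKM in leukemia, 145 to 4131 in Ebf1+/- pools and 78.3 to 459 in WT pools. The 10 erythroid markers summed to 57.3 to 148 FPKM in leukemia, 492 to 1204 in Ebf1+/- pools and 224 to 1228 in WT pools. Car2 alone had 56.5 to 147 FPKM in leukemia, and Car1 was at 0 in all 5 leukemias. Hba-a1, Hbb-bt and Hbb-bs were at 0 in every library. Of 7 erythroid markers tested against WT, 6 were called lower and 0 higher. The 9 T cell markers measured summed to 57.5 to 112 FPKM in leukemia, 36.1 to 54.3 in Ebf1+/- pools and 31.2 to 37.8 in WT pools. Lck alone accounted for most of the leukemia sum, at 51.7 to 106 FPKM in leukemia, 14.9 to 23.6 in Ebf1+/- pools and 12.4 to 18.9 in WT pools. Of 7 T cell markers tested against WT, Lck was called higher and Zap70 lower, with a median of -0.63, and of 8 tested against Ebf1+/- pools Lck was called higher and Cd3e, Cd3g and Zap70 lower, with a median of -1.04. NK cell sums (8 markers) were 24.0 to 60.2 FPKM in leukemia, 33.4 to 113 in Ebf1+/- pools and 21.3 to 36.1 in WT pools. Klrd1 alone had 8.66 to 37.2 FPKM in leukemia and 1.75 to 5.74 in WT pools. Ncr1 had 0.0551 to 0.191 FPKM in leukemia and 1.44 to 1.93 in WT pools. Of 4 NK cell markers tested against WT, 1 was called higher and 1 lower, and of 7 tested against Ebf1+/- pools, 0 higher and 4 lower. Dendritic cell sums (7 markers) were 69.7 to 199 FPKM in leukemia, 84.0 to 193 in Ebf1+/- pools and 70.1 to 192 in WT pools. Bst2 alone had 57.8 to 131 FPKM in leukemia and 51.4 to 119 in WT pools. Of 4 dendritic cell markers tested against WT, 2 were called lower and 0 higher. Lymph node stroma sums (10 markers) were 25.3 to 42.8 FPKM in leukemia, 50.3 to 84.6 in Ebf1+/- pools and 74.6 to 139 in WT pools. Of these, Pecam1 alone had 25.2 to 42.4 FPKM in leukemia. Markers are named here after their values were seen. NF-κB genes are used by many of these cell types, and the part that other cells played in the values below was not tested. In bulk RNA, fewer cells of a type and less RNA per cell cannot be told apart.

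Because NF-κB inhibitors are known as targets of NF-κB, the stretch before each gene's start was searched for the κB consensus, the DNA pattern that NF-κB dimers bind. The search read the 250 bases upstream of each RefSeq start (build GRCm38.p6) on both strands. Of the 10 genes, 7 had an entry, with 10 starts in all, and Nfkb1, Relb and Nfkbiz had none. Of these 10 windows, 7 held a match, compared with 3.9% of 32851 windows over all genes. The 3 windows below are shown because they lie before a pair of inhibitors with large differences between leukemia and WT (Nfkbia and Nfkbie) and before Rel, which had the smallest difference of the 10. Each is written on the gene's strand with the match in capitals.
Nfkbia, chr12:55492648-55492897, minus strand: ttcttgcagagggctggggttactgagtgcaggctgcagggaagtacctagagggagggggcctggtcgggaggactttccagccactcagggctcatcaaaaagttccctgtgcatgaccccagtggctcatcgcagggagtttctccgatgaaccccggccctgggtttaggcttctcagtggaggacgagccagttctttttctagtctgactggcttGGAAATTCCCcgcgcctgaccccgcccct
Nfkbie, chr17:45555450-45555699, plus strand: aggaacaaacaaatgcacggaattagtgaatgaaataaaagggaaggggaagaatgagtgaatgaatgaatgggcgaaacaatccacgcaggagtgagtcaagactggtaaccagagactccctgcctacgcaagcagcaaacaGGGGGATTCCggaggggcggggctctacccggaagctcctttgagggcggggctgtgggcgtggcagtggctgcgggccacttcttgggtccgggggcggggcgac
Rel, chr11:23770970-23771219, minus strand: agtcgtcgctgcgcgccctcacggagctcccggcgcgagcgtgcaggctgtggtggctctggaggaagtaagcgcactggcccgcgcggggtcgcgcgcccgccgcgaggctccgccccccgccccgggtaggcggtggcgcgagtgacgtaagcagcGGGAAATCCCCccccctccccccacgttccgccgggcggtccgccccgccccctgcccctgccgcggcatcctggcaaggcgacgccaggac

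The match began 29 bases before the start of Nfkbia, 106 before that of Nfkbie and 92 before that of Rel, where 3 overlapping matches on both strands made up 1 stretch of 11 bases. Nfkb2 had matches before each of its 3 starts, and the window of the first held a pair of them close to that start, shown here.
Nfkb2, chr19:46304698-46304708, plus strand: GGGAATTCCCC
Nfkb2, chr19:46304726-46304735, plus strand: GGGGCTTTCC
The first of these began 39 bases and the other 11 bases before the start, and the longer stretch is again made of 3 overlapping matches. At the other starts of Nfkb2 the match began 236 and 225 bases upstream. Tnfaip3 had a match 125 and another 12 bases before its first start and none before its second. Rela and Nfkbib had none in these windows. A match is a run of letters and not a measured binding site. Among the genes with a match, leukemia minus WT was -1.77 for Nfkbia, -1.32 for Nfkb2, -1.18 for Tnfaip3, -1.13 for Nfkbie and -0.01 for Rel. It was -0.37 for Rela and -0.42 for Nfkbib, which have none. These values are a description of 7 genes, with no test.

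**Figure D1:**
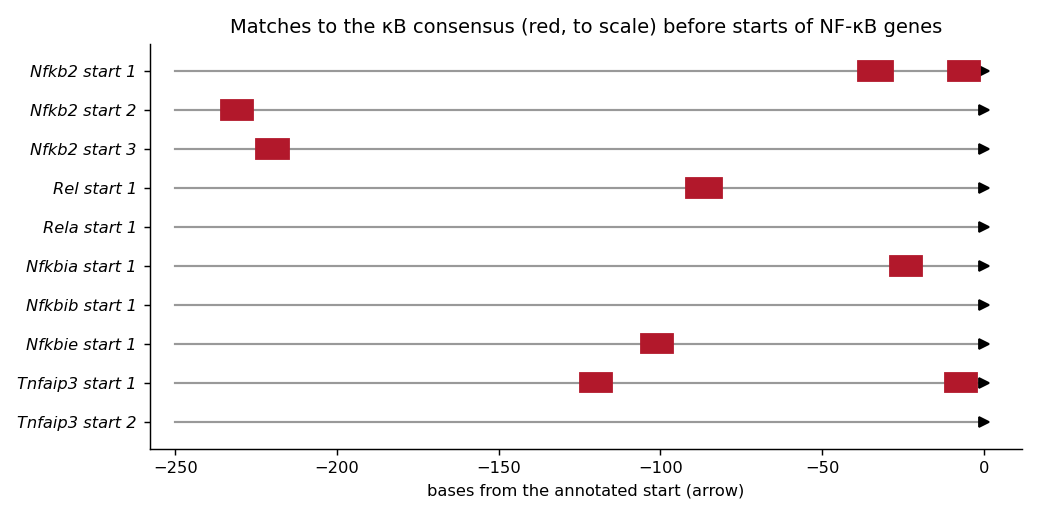
Matches to the κB consensus (red, drawn to scale) in the 250 bases before each of 10 annotated starts of 7 NF-κB genes; the x axis gives bases from the start, which the arrow marks. Windows of Nfkb2, Rel, Nfkbia, Nfkbie and the first start of Tnfaip3 hold matches, and those of Rela, Nfkbib and the second start of Tnfaip3 hold none.

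In leukemia against WT, 7 of the 10 genes were called lower and none higher, where 44.8% of the 10968 genes tested were called, 24.1% lower and 20.7% higher. The 7 were Nfkb1, Nfkb2 and Relb among the subunits and Nfkbia, Nfkbib, Nfkbie and Tnfaip3 among the inhibitors. The median difference of the 10 was -0.78, against -0.04 over all genes tested. All leukemias lay below all WT pools in 8 of the 10, the 7 called genes and Rela, and 25.1% of all genes showed that. The genes were chosen for what they do, with earlier results of these data known, so these counts describe them and are not a test of the group.

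**Figure D2:**
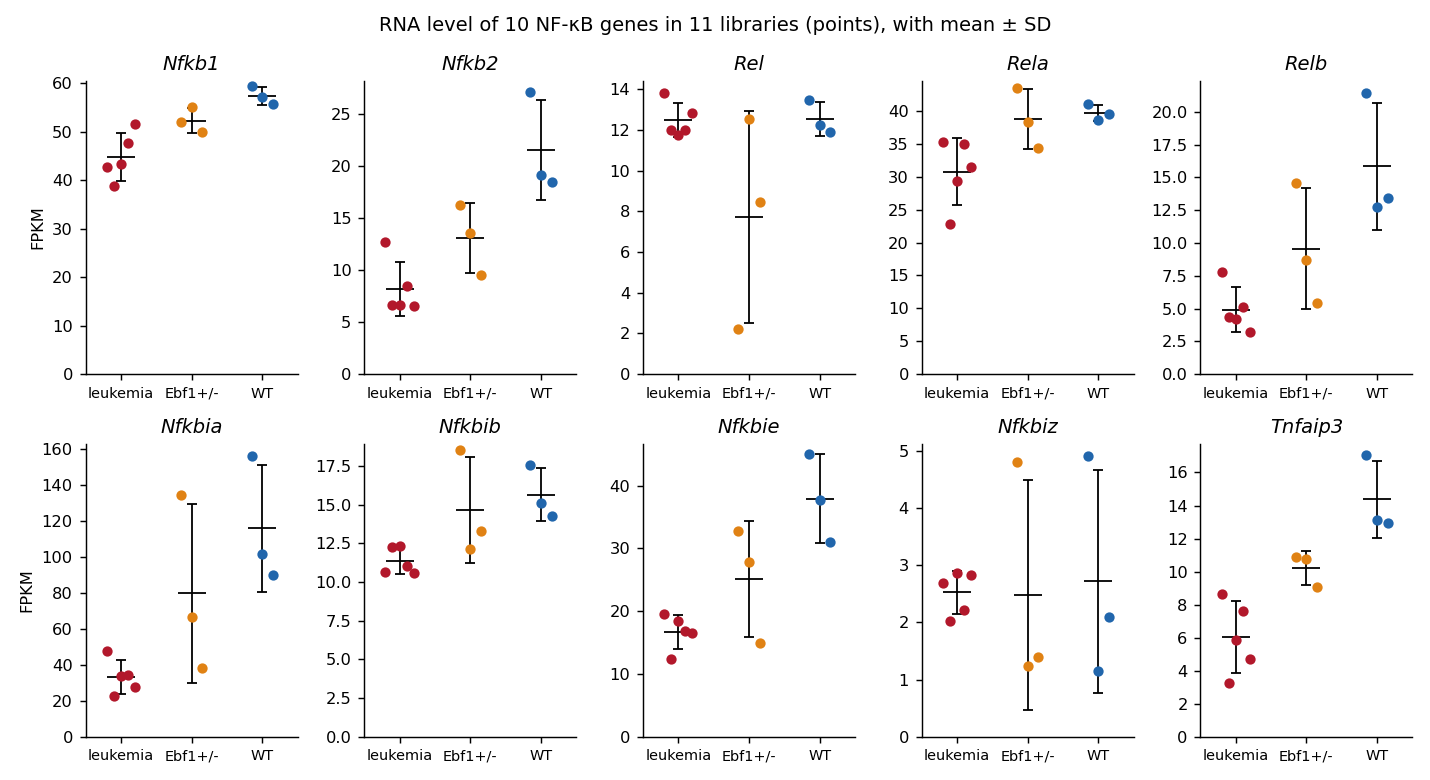
FPKM of the 10 NF-κB genes (y axis, linear from 0) in 5 leukemias, 3 Ebf1+/- pools and 3 WT pools; points are libraries, and bars give the mean ± SD. For Nfkbia the leukemias lie between 22.7 and 47.8 FPKM and the WT pools between 89.7 and 156 FPKM, while for Rel 1 Ebf1+/- pool stands at 2.20 FPKM.

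Nfkb1, on chromosome 3 (135584655 to 135691547, GRCm38), encodes p105, the precursor of p50, a subunit with no activation domain of its own. It was the most abundant subunit in every group. Nfkb1 had 42.6, 38.9, 43.3, 47.7 and 51.6 FPKM in leukemias 1 to 5, against 59.4, 57.1 and 55.7 FPKM in WT pools 1 to 3. The groups did not overlap, but the highest leukemia came close to the lowest WT pool. The difference was small and called (-0.36, SE 0.10, limma adjusted p = 0.0200). Without WT replicate 1 the adjusted p was 0.0603, and without WT replicate 2 it was 0.0594, so that the call rested on each of these pools. In the Ebf1+/- pools Nfkb1 stood at 52.0, 55.0 and 49.8 FPKM, just below all WT pools (-0.13, SE 0.12, adjusted p = 0.788).

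Nfkb2 (chromosome 19, 46304320 to 46312385) encodes p100, which acts as an inhibitor until it is cut to p52, and Relb (chromosome 7, 19606217 to 19629438) encodes RelB, the usual partner of p52. Nfkb2 had 12.7, 6.63, 6.61, 8.48 and 6.57 FPKM in leukemias 1 to 5, 16.2, 13.6 and 9.51 FPKM in Ebf1+/- pools 1 to 3, and 27.1, 19.2 and 18.5 FPKM in WT pools 1 to 3. Leukemia 1 was the highest leukemia and lay within the range of the Ebf1+/- pools, but below every WT pool. Relb had 7.75, 4.34, 4.21, 5.10 and 3.20 FPKM in the leukemias, 14.6, 8.71 and 5.42 FPKM in Ebf1+/- pools, and 21.4, 12.7 and 13.4 FPKM in WT pools. Both genes followed the same order of group means, with leukemia lowest and WT highest. The difference of leukemia from WT was -1.32 for Nfkb2 (SE 0.22, limma adjusted p = 0.00155) and -1.52 for Relb (SE 0.25, adjusted p = 0.00138). The mean FPKM of leukemia was 37.9% of the WT mean for Nfkb2 and 31.0% for Relb. Exons of Nfkb2 overlap those of Psd and AC114539.1 on the opposite strand. Whether counting used strand is not stated in the labels, so reads of these genes cannot be told apart. Psd averaged 0.762 FPKM in leukemia, 2.04 in Ebf1+/- pools and 2.83 in WT pools, well below Nfkb2 in each group.

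Rela (chromosome 19, 5637483 to 5648130) and Rel (chromosome 11, 23736847 to 23770970) encode RelA, also called p65, and c-Rel, the activating subunits of the canonical route; c-Rel is found mostly in blood cells. Rela had 35.3, 22.9, 29.3, 35.0 and 31.5 FPKM in the leukemias and 41.0, 38.6 and 39.6 FPKM in WT pools. All leukemias lay below the WT pools, yet the difference missed the threshold (-0.37, SE 0.14, limma adjusted p = 0.0548). It was called without leukemia replicate 1 (adjusted p = 0.0438) and without leukemia replicate 4 (adjusted p = 0.0429). Rel had 13.83, 11.99, 11.76, 12.03 and 12.86 FPKM in the leukemias and 13.50, 12.27 and 11.88 FPKM in WT pools. These ranges lay on top of each other, and the difference was -0.01 with a 95% interval of -0.22 to 0.21 (adjusted p = 0.960).

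In the Ebf1+/- pools Rela had 43.5, 38.3 and 34.4 FPKM, around the WT values, while Rel had 2.20, 12.5 and 8.48 FPKM. Replicate 1 stood apart for Rel, at 87 of 15313920 reads, which is 25.9% of the lowest of the other 10 libraries. The same library was the highest of the Ebf1+/- pools in 8 of the other 9 genes. Of 11173 genes, 54 stood as low or lower in this library relative to the lowest of the other libraries. In each leukemia 33 to 66 genes did so, and in each of the other marrow pools 0 to 6. The difference of Ebf1+/- from WT pools in Rel was -0.86 (SE 0.50, 95% interval -2.04 to 0.31, limma adjusted p = 0.723), and -0.26 without Ebf1+/- replicate 1.

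Ratios of 2 genes within a library do not move with its scaling. Rel over Rela averaged 0.414 ± 0.067 in leukemia, 0.208 ± 0.142 in Ebf1+/- pools and 0.316 ± 0.0144 in WT pools. The lowest leukemia stood at 0.343 and the highest WT pool at 0.329. Of the 2 RNAs, Rel differed by -0.01 and Rela by -0.37 between leukemia and WT, and neither was called. Relb over Rela averaged 0.160 ± 0.0456 in leukemia, 0.240 ± 0.0895 in Ebf1+/- pools and 0.397 ± 0.109 in WT pools. Nfkb2 over Nfkb1 averaged 0.185 ± 0.0657 in leukemia, 0.250 ± 0.061 in Ebf1+/- pools and 0.375 ± 0.0709 in WT pools. For each of these ratios leukemia and WT did not overlap. The share of other gene pairs that do so was not computed, so a separation particular to these genes is not shown. Of single genes, 25.1% lay below WT in all leukemias. The log2 differences of leukemia from WT were 0.38, -1.33 and -1.06 for the 3 ratios in that order (two-sided exact permutation p = 0.0357 each, and 0.0857 adjusted over the 12 ratio tests made). With 5 against 3 libraries this was the smallest p possible, and with 3 against 3, as in Ebf1+/- against WT, none could go below 0.1. The adjusted p could therefore not pass 0.05 for any ratio, whatever the values, and it decides nothing here. Rel over Rela was also higher in all leukemias than in all Ebf1+/- pools (log2 difference 1.36, exact permutation p = 0.0357, adjusted p = 0.0857). That difference was 0.53 without Ebf1+/- replicate 1.

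Summed over the 5 subunits, RNA came to 101 ± 11.2 FPKM in leukemia, 121 ± 11.9 in Ebf1+/- pools and 147 ± 13.3 in WT pools. Of that sum, Rel took 12.4 ± 1.10% in leukemia, 6.46 ± 4.22% in Ebf1+/- pools and 8.54 ± 0.232% in WT pools. Relb and Nfkb2, the non-canonical pair, took 4.84 ± 1.40% and 8.02 ± 1.95% in leukemia, 7.72 ± 3.26% and 10.7 ± 1.91% in Ebf1+/- pools, and 10.6 ± 2.22% and 14.6 ± 1.85% in WT pools. Nfkb1 and Rela together made up the bulk in every group, with 44.5% and 30.3% in leukemia, 43.2% and 31.9% in Ebf1+/- pools, and 39.2% and 27.1% in WT pools.

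**Figure D3:**
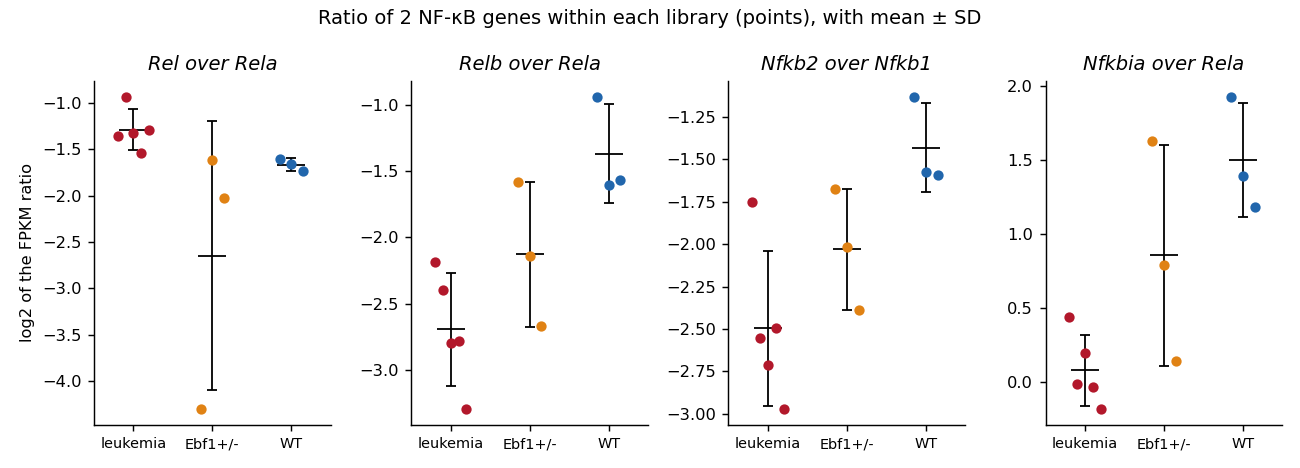
log2 of the FPKM ratio of 2 NF-κB genes within each library (y axis) for 5 leukemias, 3 Ebf1+/- pools and 3 WT pools; points are libraries, and bars give the mean ± SD of the log2 ratios. Rel over Rela is higher in all leukemias than in all WT pools, and the other 3 ratios are lower; Ebf1+/- replicate 1 stands at -4.31 for Rel over Rela.

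Among the inhibitors, Nfkbia (chromosome 12, 55489410 to 55492647) showed the largest difference of the 10 genes. It encodes IκBα, the inhibitor that is destroyed and remade fastest after a signal. Nfkbia had 47.8, 22.7, 33.5, 34.3 and 27.8 FPKM in the leukemias, 135, 66.5 and 38.1 FPKM in Ebf1+/- pools, and 156, 102 and 89.7 FPKM in WT pools. The highest leukemia lay far below the lowest WT pool, and Ebf1+/- replicate 3 fell within the leukemia range. The difference of leukemia from WT was -1.77 (SE 0.25, limma adjusted p = 0.000599), with a mean at 28.7% of the WT mean. Nfkbia was also set against Rela, 1 of the subunits whose dimers it holds. This ratio averaged 1.07 ± 0.185 in leukemia, 1.98 ± 1.02 in Ebf1+/- pools and 2.90 ± 0.805 in WT pools. Leukemia minus WT was -1.42 on the log2 scale (two-sided exact permutation p = 0.0357, adjusted p = 0.0857). The ratio lay between 0.882 and 1.35 in the leukemias, and between 2.27 and 3.81 in the WT pools.

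Nfkbie (chromosome 17, 45555703 to 45563169) encodes IκBε, an inhibitor known to act on dimers of RelA and c-Rel in B cells. Nfkbie had 19.5, 12.4, 18.4, 16.8 and 16.5 FPKM in the leukemias and 45.1, 37.8 and 31.0 FPKM in WT pools, with a wide gap between the groups. The difference was -1.13 (SE 0.16, limma adjusted p = 0.000708). In Ebf1+/- pools it had 32.7, 27.8 and 14.9 FPKM, from within the WT range down to within the leukemia range. Nfkbib (chromosome 7, 28758251 to 28767512) encodes IκBβ, which is remade more slowly than IκBα. It had 10.7, 12.3, 12.3, 11.1 and 10.6 FPKM in the leukemias, 18.5, 12.1 and 13.3 FPKM in Ebf1+/- pools, and 17.6, 15.1 and 14.3 FPKM in WT pools. Its difference of leukemia from WT was the smallest among the called inhibitors (-0.42, SE 0.10, adjusted p = 0.00975). Exons of Nfkbib overlap those of Sirt2 and Ccer2 on the opposite strand, and Sirt2 averaged 18.4 FPKM in leukemia, 29.4 in Ebf1+/- pools and 30.7 in WT pools, so the level of Nfkbib is uncertain.

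Nfkbiz (chromosome 16, 55811375 to 55838899) encodes IκBζ, an inducible nuclear member of the family that works with p50 at target genes. It was the least abundant of the 10 genes in every group. Nfkbiz had 2.70, 2.03, 2.87, 2.21 and 2.83 FPKM in the leukemias, 4.80, 1.24 and 1.39 FPKM in Ebf1+/- pools, and 4.90, 1.15 and 2.10 FPKM in WT pools. The 5 leukemias lay between the extremes of the marrow pools, and no difference was called (leukemia minus WT 0.04, 95% interval -0.61 to 0.70, limma adjusted p = 0.910). In both marrow groups replicate 1, a pool of 3 mice, was far above the others.

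Tnfaip3 (chromosome 10, 19000910 to 19015657) encodes A20, a ubiquitin-editing enzyme that shuts off the signal upstream of IKK. Tnfaip3 had 8.65, 3.24, 5.88, 7.64 and 4.69 FPKM in the leukemias, 10.9, 10.8 and 9.06 FPKM in Ebf1+/- pools, and 17.05, 13.10 and 12.96 FPKM in WT pools. The 3 groups did not overlap, in the order leukemia, Ebf1+/- and WT from low to high. Tnfaip3 was the 1 gene of the 10 for which this held, and 2.39% of 11173 genes showed it. The difference of leukemia from WT was -1.18 (SE 0.26, limma adjusted p = 0.00555). Summed over Nfkbia, Nfkbib, Nfkbie and Nfkbiz, IκB RNA came to 63.8 ± 11.7 FPKM in leukemia, 122 ± 62.8 in Ebf1+/- pools and 172 ± 45.7 in WT pools.

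Within each group, many of these genes had their highest or lowest value in the same library. WT replicate 1 was the highest WT pool in 10 of 10 genes and Ebf1+/- replicate 1 the highest Ebf1+/- pool in 8 of 10. WT replicate 3 and Ebf1+/- replicate 3 were each the lowest of their group in 7 of 10. Among the leukemias, replicate 1 was highest in 7 and replicate 2 lowest in 6. The share of all genes with the same libraries at their extremes was not computed, so these counts are not shown to be particular to NF-κB genes. The summed granulocyte markers were 10646, 2716 and 3999 FPKM in Ebf1+/- replicates 1 to 3, and 3398, 1805 and 630 FPKM in WT replicates 1 to 3, and the summed B cell markers were 5375, 4150 and 1861 FPKM in Ebf1+/- replicates 1 to 3, and 4386, 3545 and 2544 FPKM in WT replicates 1 to 3. In both groups the pool with the most genes at their highest value also had the highest granulocyte, monocyte and B cell sums. The B cell sums ranked the pools of each marrow group, 3 in each, as Nfkbia did. They did not rank the leukemias so: leukemia 1 had the lowest B cell sum (3372 FPKM) and the highest Nfkbia (47.8 FPKM). The granulocyte sums ranked the WT pools as Nfkbia did, and not the Ebf1+/- pools. Ebf1+/- pools had higher granulocyte sums than WT pools for each replicate number, and lower means of all 10 NF-κB genes. The part of these cell types in the values was not tested. Without WT replicate 1, leukemia minus WT was still -1.54 for Nfkbia (limma adjusted p = 0.00260), -1.29 for Relb (0.00652), -1.15 for Nfkb2 (0.00811), -1.005 for Nfkbie (0.00358), -1.06 for Tnfaip3 (0.0275) and -0.34 for Nfkbib (0.0381).

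In Ebf1+/- against WT, none of the 10 genes was called, and the share called over all 11167 genes tested was 0.0%. Without adjustment, 2 of the 10 had p under 0.05, Nfkb2 (-0.69, SE 0.24, limma adjusted p = 0.574) and Tnfaip3 (-0.45, SE 0.17, adjusted p = 0.604). Over all genes 3.54% were lower at that p. All 10 differences were negative, where 46.0% of all genes had a negative one, and the median was -0.54, against 0.03 over all genes. In Nfkb1, Nfkb2 and Tnfaip3 all Ebf1+/- pools lay below all WT pools, and 8.1% of all genes showed that. Intervals of this unpaired fit were wide: for Nfkbia the difference was -0.68 with a 95% interval of -1.75 to 0.39, and for Relb it was -0.73 with an interval of -1.57 to 0.11. Without Ebf1+/- replicate 1 the difference was -1.14 for Nfkbia and -1.06 for Relb, and without Ebf1+/- replicate 3 it was -0.25 for Nfkbia and -0.42 for Relb.

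Same-numbered Ebf1+/- and WT pools moved together over all genes and were taken as pairs. Within these pairs Nfkb1, Nfkb2, Relb, Nfkbia, Nfkbie and Tnfaip3 were lower in the Ebf1+/- pool in 3 of 3, and 20.4% of all genes showed that. With the replicate number as a block, the 95% interval was -1.18 to -0.17 for Nfkbia (limma adjusted p = 0.213) and -1.17 to -0.29 for Relb (adjusted p = 0.154), and none of the 10 genes was called. Without adjustment, 5 of the 10 were lower at p under 0.05 in this fit (Nfkb2, Relb, Nfkbia, Nfkbie and Tnfaip3), where 6.4% of all genes were. The Ebf1+/- libraries were listed with other alignment tools than the rest, so the aligner and the genotype cannot be told apart. The values of every library, these included, came out as whole reads over 1 length per gene, so it is not clear that the Ebf1+/- values came from the tools listed.

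In leukemia against Ebf1+/- pools, none of the 10 genes was called either, where 21.6% of the 11161 genes tested were called, 12.3% lower and 9.31% higher. Differences were negative for 8 of the 10 genes and for 52.4% of all genes, with a median of -0.42 against -0.02 over all genes. Nfkbia came closest (-1.10, SE 0.37, limma adjusted p = 0.0642), followed by Tnfaip3 (-0.74, SE 0.26, adjusted p = 0.0727), the 1 gene in which all leukemias lay below all Ebf1+/- pools, as did 16.2% of all genes. Nfkb2 (-0.63, adjusted p = 0.0931) and Relb (-0.79, adjusted p = 0.102) also had an unadjusted p under 0.05, which makes 4 of the 10 lower at that p, where 19.9% of all genes were. Rel pointed the other way (0.86, SE 0.39, adjusted p = 0.144), and the difference was 0.25 without Ebf1+/- replicate 1, the pool that stood apart for Rel (adjusted p = 0.262). Several calls appeared when 1 library was left out. Without Ebf1+/- replicate 3, Nfkbia (adjusted p = 0.0187), Nfkbie (0.0212) and Relb (0.0427) were called lower. Without leukemia replicate 1, Nfkb2 (0.0317) and Tnfaip3 (0.0462) were called lower, and without Ebf1+/- replicate 2, which leaves replicate 1 as 1 of 2 pools, Rel was called higher (0.0436). The 2 comparisons with leukemia share the leukemia libraries and the 2 with WT share the WT pools, so their values are not independent of each other.

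**Figure D4:**
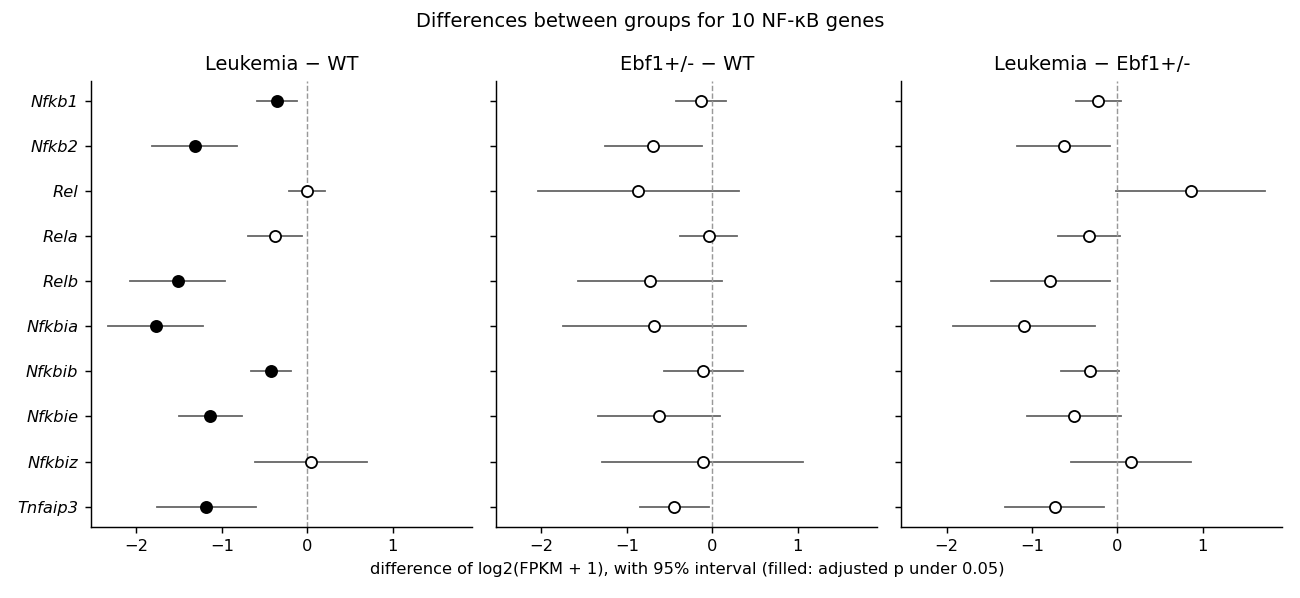
Differences of log2(FPKM + 1) between groups for the 10 NF-κB genes (x axis; lines are 95% intervals, filled points have an adjusted p under 0.05), for leukemia minus WT, Ebf1+/- minus WT and leukemia minus Ebf1+/-. In leukemia minus WT 7 points are filled, all below 0, and in the other 2 panels none is filled.

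The order of the levels shifted between the groups. In leukemia it ran Nfkb1, Nfkbia, Rela, Nfkbie, Rel, Nfkbib, Nfkb2, Tnfaip3, Relb and Nfkbiz from high to low. In Ebf1+/- pools it ran Nfkbia, Nfkb1, Rela, Nfkbie, Nfkbib, Nfkb2, Tnfaip3, Relb, Rel and Nfkbiz, and in WT pools Nfkbia, Nfkb1, Rela, Nfkbie, Nfkb2, Relb, Nfkbib, Tnfaip3, Rel and Nfkbiz. Many neighbours were not apart: in leukemia the ranges of next genes overlapped except between Rela and Nfkbie and between Relb and Nfkbiz. In Ebf1+/- pools they overlapped except between Nfkb1 and Rela and between Rela and Nfkbie. In WT pools Nfkbia, Nfkb1 and Rela were apart from each other, as were Nfkbie from Nfkb2 and Rel from Nfkbiz, and the rest overlapped. Rel had rank 5 in leukemia and rank 9 in the other groups, at 12.5 ± 0.855 FPKM in leukemia, 7.74 ± 5.20 in Ebf1+/- pools and 12.6 ± 0.846 in WT pools.

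For each subunit the gene with the most similar profile was sought among 11144 genes, by the root mean square difference of centred log2(FPKM + 1) over the 11 libraries. For Nfkb1 this was Cnot3, a subunit of the CCR4-NOT complex that shortens mRNA tails, at 0.0536. For Rela it was Kdelr1, a receptor that returns proteins to the endoplasmic reticulum, at 0.102. For Nfkb2 it was Tcp11l2 at 0.163, with means of 17.2 FPKM in leukemia, 29.6 in Ebf1+/- pools and 44.1 in WT pools. For Rel it was A430078G23Rik at 0.163, which averaged 11.996 FPKM in leukemia, 7.951 in Ebf1+/- pools and 13.03 in WT pools. For Relb it was Zfp296, a zinc finger gene, at 0.165, with means of 4.98 FPKM in leukemia, 9.39 in Ebf1+/- pools and 14.8 in WT pools. Zfp296 (chromosome 7, 19577287 to 19580656) lies on the same chromosome as Relb, 25560 bases from it, whereas the other 4 lie on other chromosomes than their subunits. These likenesses are descriptions over libraries that share groups and depth.

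The other genes of the pathway were grouped in 6 lists by role. Their counts are to be read beside the shares of all genes called, 44.8% in leukemia against WT and 21.6% in leukemia against Ebf1+/- pools. A gene under 1 FPKM in a group could pass the filter through the group where it was higher. Map3k8, Lta and Tnf did so through leukemia, and Cd40 and Ltbr through the marrow pools. In the list headed other IκB family, of 3 genes tested in leukemia against WT, 1 was called higher and 1 lower. Nfkbil1, named for its likeness to IκB, averaged 24.0 ± 2.63 FPKM in leukemia and 9.15 ± 0.274 in WT (1.29, SE 0.10, limma adjusted p = 4.63e-05). Bcl3, a nuclear family member that binds p50 and p52, averaged 1.17 ± 1.17 FPKM in leukemia and 7.75 ± 2.43 in WT (-2.11, SE 0.36, adjusted p = 0.00180). This list therefore held a gene called in each direction, and Nfkbid was not called (leukemia minus WT -0.55, adjusted p = 0.217). Nfkbil1 and Bcl3 were also called against Ebf1+/- pools. There Nfkbil1 averaged 12.4 ± 2.00 FPKM (leukemia minus Ebf1+/- 0.91, adjusted p = 0.00253) and Bcl3 averaged 7.62 ± 4.33 FPKM (-2.01, adjusted p = 0.0102).

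Of the 11 kinases and partners of the IKK, TAK1 and NIK complexes, which carry the signal to the inhibitors, 2 were called higher and 3 lower in leukemia against WT (45.5%, a share near that of all genes), with a median of -0.04, the same as over all genes. Map3k8, a kinase that p105 holds inactive, averaged 3.12 ± 0.815 FPKM in leukemia and 0.657 ± 0.266 in WT (1.31, SE 0.21, limma adjusted p = 0.00120). Chuk, which encodes the IKKα subunit, averaged 12.7 ± 2.75 FPKM in leukemia and 19.1 ± 1.75 in WT (-0.57, SE 0.16, adjusted p = 0.0198). Tab2, an adaptor of TAK1, averaged 45.2 ± 3.26 FPKM in leukemia and 55.9 ± 3.49 in WT (-0.30, SE 0.09, adjusted p = 0.0223). The calls of Chuk and Tab2 were lost without WT replicate 1 (adjusted p = 0.0722 for each), that of Chuk also without WT replicate 3 (0.0546) and that of Tab2 without WT replicate 2 (0.058). Against Ebf1+/- pools Map3k8 alone was called (leukemia minus Ebf1+/- 1.06, adjusted p = 0.0373), with adjusted p up to 0.118 when single libraries were left out (Ebf1+/- replicate 2 or 3, or leukemia replicate 1, 2, 3 or 4), 0.0502 with no filter and 0.0525 with voom on recovered reads.

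Among 9 TRAF proteins and ubiquitin ligases, which build the scaffold for IKK, 1 was called higher and 5 lower in leukemia against WT (66.7%), with a median of -0.44. Birc3, a ubiquitin ligase also known as a target of NF-κB, averaged 13.8 ± 2.30 FPKM in leukemia and 44.9 ± 9.91 in WT (-1.62, SE 0.16, limma adjusted p = 0.000123). Traf6, a ligase below CD40 and the Toll-like receptors, averaged 13.6 ± 1.43 FPKM in leukemia and 30.6 ± 3.95 in WT (-1.12, SE 0.12, adjusted p = 0.000137). Traf5, an adaptor of TNF receptor family members, averaged 8.57 ± 0.893 FPKM in leukemia and 23.6 ± 9.13 in WT (-1.31, SE 0.20, adjusted p = 0.000964). Against Ebf1+/- pools 4 of the 9 were called lower (44.4%), with Traf5 at -0.87 (adjusted p = 0.00550) and Birc3 at -0.92 (adjusted p = 0.0184, and 0.0633 without Ebf1+/- replicate 2).

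Of the other inhibitors, 9 of 10 listed genes were tested, and 2 were called higher and 5 lower in leukemia against WT (77.8%), with a median of -0.44. Otud7b, an enzyme that removes ubiquitin, averaged 7.16 ± 0.758 FPKM in leukemia and 12.7 ± 1.49 in WT (-0.74, SE 0.12, limma adjusted p = 0.00115). Itch, a ubiquitin ligase that works with A20, averaged 18.2 ± 1.49 FPKM in leukemia and 25.3 ± 0.800 in WT (-0.45, SE 0.09, adjusted p = 0.00408). Tnip2, a partner of A20, went the other way, at 6.59 ± 1.53 FPKM in leukemia and 2.94 ± 0.545 in WT (0.93, SE 0.18, adjusted p = 0.00340). With all 3 groups in 1 fit the call of Otud7b was lost (adjusted p = 0.151). Against Ebf1+/- pools Tnip1, another partner of A20, was the 1 gene called (-0.42, adjusted p = 0.0475). That call was lost under quantile normalization (0.0982), under median-ratio scaling (0.0584) and without any single library other than leukemia replicate 1, with 0.101 without Ebf1+/- replicate 2 as the highest of these.

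Of 14 receptors listed upstream of NF-κB, 12 were tested, and 3 were called higher and 5 lower in leukemia against WT (66.7%), with a median of -0.51. Tlr7, a sensor of single-stranded RNA, averaged 15.3 ± 2.30 FPKM in leukemia, 3.16 ± 0.387 in Ebf1+/- pools and 2.24 ± 1.30 in WT pools. It was called higher against WT (2.39, SE 0.23, limma adjusted p = 0.000102) and against Ebf1+/- pools (1.96, SE 0.16, adjusted p = 8.79e-05). Tnfrsf1b, which encodes TNF receptor 2, averaged 16.7 ± 3.15 FPKM in leukemia and 8.59 ± 0.475 in WT (0.87, SE 0.15, adjusted p = 0.00169). Cd40, a receptor that engages both routes, averaged 0.758 ± 0.807 FPKM in leukemia and 5.56 ± 2.75 in WT (-1.92, SE 0.36, adjusted p = 0.00268). Ltbr, the lymphotoxin β receptor, averaged 0.895 ± 1.25 FPKM in leukemia and 7.12 ± 4.19 in Ebf1+/- pools (-2.12, SE 0.53, adjusted p = 0.0222, and 0.0655 and 0.0797 without Ebf1+/- replicate 1 and 3).

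Of 28 genes widely known as targets of NF-κB, 17 reached the level for the test of leukemia against WT. Of these, 4 were called higher and 4 lower (47.1%, a share near that of all genes), with a median of 0.03. Lta and Tnf passed the filter of 1 FPKM only through leukemia. Of the untested genes, Vcam1 averaged 0.375 FPKM in leukemia and 1.14 in WT, Ier3 0.164 and 0.929, and Fas 0.331 and 0.838. Cxcl10 averaged 0.241 and 0.223 FPKM and Il6 0.0784 and 0. The counts and the median therefore depend on the filter and cover the tested genes only. Irf4, a transcription factor of activated and developing B cells, averaged 18.5 ± 6.93 FPKM in leukemia, 67.5 ± 24.5 in Ebf1+/- pools and 132 ± 22.5 in WT pools (leukemia minus WT -2.83, SE 0.27, limma adjusted p = 9.97e-05). The cytokine genes Lta and Tnf, which are neighbours in the genome of the mouse, were near 0 in WT and higher in leukemia. Lta averaged 9.21 ± 4.31 FPKM in leukemia and 0.295 ± 0.328 in WT (2.91, SE 0.32, adjusted p = 0.000175), and Tnf averaged 4.21 ± 1.25 FPKM in leukemia and 0.212 ± 0.244 in WT (2.09, SE 0.24, adjusted p = 0.000235). Against Ebf1+/- pools, 2 of 18 were called higher and 4 lower (33.3%), among them Lta (2.23, adjusted p = 0.00158) and Bcl2l1, which encodes the survival protein Bcl-xL, at 14.6 ± 5.65 FPKM in leukemia and 47.8 ± 3.54 in Ebf1+/- pools (-1.72, SE 0.28, adjusted p = 0.00365). In Ebf1+/- against WT no tested gene of the 6 lists was called.

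**Figure D5:**
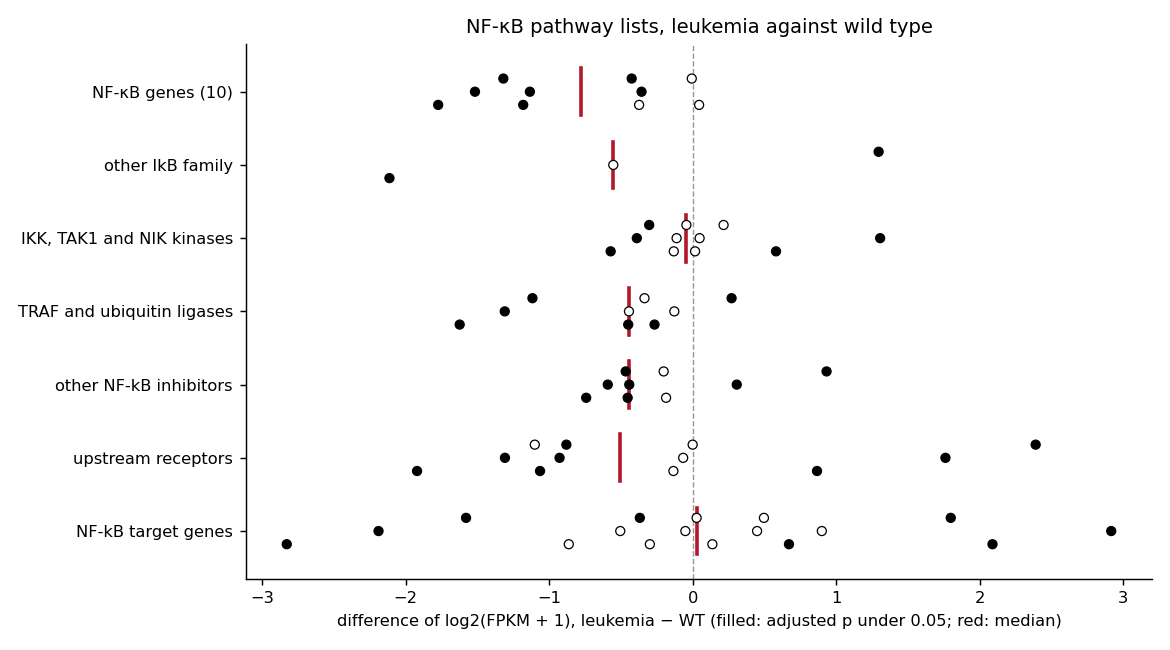
Differences of log2(FPKM + 1), leukemia minus WT (x axis), for the 10 NF-κB genes and the tested genes of 6 lists of the pathway (rows); each point is a gene, filled where the adjusted p is under 0.05, and the red line is the median of the row. The row of the 10 NF-κB genes has its median at -0.78 and 7 filled points below 0, while the target genes have 4 filled points on each side and a median of 0.03.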

How the data were processed

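The authors deposited 1 table of FPKM values for 11 RNA-seq libraries, made from reads aligned to mouse build mm10 (GRCm38). The leukemia and WT libraries have BWA 0.7.12 and the Ebf1+/- libraries TopHat2 with Cufflinks, per the submitters' processing notes. No source used here names the counting step or gene models for the other libraries. The FPKM values of all 17380 genes above 0 came out as whole reads within 0.001 read. Reads carry no molecular identifiers, so their number covers counting error only. Another 27 identifiers were spreadsheet serial numbers and were not named.

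Values were taken as log2(FPKM + 1) and tested two-sided with limma 3.58.1 (eBayes with trend) in R 4.3.3, with only the 2 groups compared, over genes averaging 1 FPKM or more. P-values were adjusted by Benjamini and Hochberg over all genes tested. Ratios were tested with exact permutation tests over libraries. Scripts used Python 3.11.15, NumPy 2.4.6, pandas 2.3.3, SciPy 1.17.1 and Matplotlib 3.10.9, and the gene fit was tested on simulated data. Coordinates are from GENCODE M21 and upstream sequences from RefSeq. The κB consensus matched GGG, a purine, any base, A or T, a pair of pyrimidines and CC. Alternatives were pseudocount 0.1, no filter, a filter of 5 FPKM, quantile normalization, scaling by median ratios, a single fit of all 3 groups, a replicate block, leaving out each library and, chosen after seeing the data, voom on the recovered reads.

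The members and lists were chosen with earlier results of these data known. All 10 members are named, and from each of 6 pathway lists up to 3 called genes of smallest p in leukemia against WT and up to 2 in the other comparisons; a further list is not reported here. Deviations from group means of same-numbered Ebf1+/- and WT libraries correlated at 0.65, 0.32 and 0.69 over 11173 genes, each over 0.1, so these numbers were taken as pairs. Leukemia numbers were not (-0.13 to 0.07 with WT, -0.10 to 0.06 with Ebf1+/-). Marrow libraries are separate pools, and nothing states separate days of preparation.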

Additional observations from a re-analysis of the deposited data

How the results depend on the processing

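In leukemia against WT, 6 to 8 of the 10 genes were called when single libraries were left out, and the same direction held for all 7 called genes in every alternative. The difference of Rel, close to 0, was 0.064 with quantile normalization and 0.019 with median-ratio scaling, and ran from -0.042 to 0.043 without single libraries. It was 0.0066, 0.013 and 0.0056 without leukemia replicates 2, 3 and 4. Nfkbiz ran from -0.29 (without WT replicate 2) to 0.44, and was -0.02 without WT replicate 3.

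In Ebf1+/- against WT, no member was called in any alternative. The count over all genes was 3 with pseudocount 0.1, 1 with quantile normalization, 23 with all 3 groups in 1 fit and 0 to 5 without single libraries (5 without Ebf1+/- replicate 3), against 0. At an unadjusted p under 0.05 it was 863. Leaving out single libraries moved Rela between -0.12 and 0.040, Nfkbib between -0.28 and 0.011 and Nfkbiz between -0.55 and 0.28. Positive values of Nfkbiz were 0.13 and 0.08 without Ebf1+/- replicates 2 and 3. With the replicate block, which pairs these groups, no member was called and the smallest adjusted p was 0.120 (Nfkb2).

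In leukemia against Ebf1+/- pools, 2 members were called with all 3 groups in 1 fit (Nfkbia and Tnfaip3, adjusted p = 0.0438 for Tnfaip3), and 0 to 3 without single libraries. Nfkbiz ran from -0.086 to 0.60, with -0.04 without Ebf1+/- replicate 3. Voom on the recovered reads called 0 members here and 0 in Ebf1+/- against WT. Over all genes 1039 were called higher and 1370 lower, and 1531 and 1141 with quantile normalization. With the replicate block, whose numbers do not pair these groups, 944 genes were called, against 2409. The block also ended the call of Nfkbib in leukemia against WT (adjusted p = 0.104). Causes of these changes were not tested. The 5 FPKM filter gave no value for Nfkbiz. The ratios kept their direction in each alternative, and their adjusted p could not pass 0.05 in this design. Depth limits most the members with the lowest read numbers, Nfkbiz (53 to 285 per library), Rel (87 to 476) and Relb (101 to 523).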
